A study of Mus musculus with 8 samples.

Results

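The clustered protocadherins counted here are 57 protein-coding genes on mouse chromosome 18. They were chosen by symbol (Pcdha, Pcdhb or Pcdhg) out of 21631 protein-coding genes on 20 chromosomes of the mm10 build. The gamma gene Pcdhgb8 is not among them. These 57 lie in 3 tandem clusters. The alpha cluster (chr18:36930285-37188897, 259 kb) holds 14 of them, the beta cluster (chr18:37264998-37521419, 256 kb) holds 22, and the gamma cluster (chr18:37661775-37841873, 180 kb) holds 21. The study profiled 3 histone marks with CUT&RUN, a method that cuts out and sequences the DNA around a protein bound by an antibody. The cells were hematopoietic stem cells sorted from bone marrow as Lin-cKit+Sca1+CD48-CD150+. The mice were on the C57BL/6 strain and about 10 months old, and 7500 cells pooled from 4 or 5 mice went into each assay. The control group, WT, carried floxed Rxra and Rxrb (Rxrabfl/fl). The RXRKO group carried the same floxed alleles with Vav-Cre, which is active across blood cells, so that both nuclear receptor genes were deleted there. The labels disagree on WT: the genotype field lists Vav-Cre for it, the design text does not, so whether both groups carried Cre is not settled. H3K4me1 was mapped in 2 libraries per genotype, and H3K4me3 and H3K27ac in 1 library per genotype, so the H3K4me3 and H3K27ac differences below have no replicate check and no test.

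Clustered protocadherins are cell-surface adhesion proteins best known from neurons, where each cell picks a few of them and uses the combination to tell its own branches from those of other cells. In the alpha and gamma clusters each gene has its own promoter and variable first exon, which is spliced to constant exons shared by the whole cluster, while beta genes are single exons. Promoter choice is known to depend on CTCF, cohesin and DNA methylation. The last genes of alpha and gamma (the C-type genes) are regulated apart from the alternate genes before them, and in many tissues outside the brain most alternate promoters are silent. H3K4me3 marks active or poised promoters, H3K27ac active promoters and enhancers, and H3K4me1 enhancers and promoter flanks.

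Because the alpha and gamma genes share their higher end, calls are given at the lower end of each gene, called here the variable end. A gene was called in a library when one of its deposited MACS3 peaks overlapped the 1 kb on either side of that end by at least 1 bp. The nearest variable ends are 4154 bp apart, so no 2 windows overlap. The fold of a peak is the peak caller's ratio of the summit over the local background, and its -log10 q is the peak caller's confidence. Both are the authors' values, and both move with depth.

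The 8 peak lists held 47835 to 165128 peaks covering 44.6 to 133 Mb. The background pileup that fold and p-value together imply was 4.12 in the WT and 6.68 in the RXRKO H3K4me3 library, 1.62 times higher in RXRKO, and the RXRKO list held 1.22 times as many H3K4me3 peaks. In the H3K4me1 libraries, replicate 1 had 5.62 (WT) and 6.53 (RXRKO), and replicate 2 had 7.37 (WT) and 12.6 (RXRKO). Replicate 1 of both genotypes carried one run tag in the peak names and replicate 2 another. These tags are read here as sequencing runs, which the labels do not state. At the targeted genes, all 8 lists called Rxra and Rxrb. H3K4me1 covered 1391 and 1431 bp of Rxrb in WT against 580 and 738 bp in RXRKO, while over Rxra it covered 21563 and 24413 bp against 22567 and 25320 bp. H3K4me3 over Rxrb covered 1258 bp in WT and 1686 bp in RXRKO, and H3K27ac 494 and 988 bp. All 11 stem cell markers had H3K4me3 in both genotypes at either gene end, against 2 of 9 markers of mature blood cells. It was also in both at 6 of 8 endothelial and stromal markers, 9 of 10 neuron and glia markers and 65.6% of all genes. H3K27ac was in both at 8 of the 11 stem cell, 2 of the 9 mature blood and 5 of the 8 endothelial and stromal markers. For the 10 neuron and glia markers this number was 3, and over all genes the share was 56.2%.

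H3K4me3 at the variable ends was called at 27 of 57 genes in WT and at 40 in RXRKO, 26 of them in both. It was called in RXRKO alone at 14 genes (24.6%): Pcdha2, Pcdha3, Pcdha4, Pcdha5, Pcdha7, Pcdha10, Pcdha11, Pcdha12, Pcdhb7, Pcdhb12, Pcdhb13, Pcdhb14, Pcdhb15 and Pcdhga3. In WT alone it was called at Pcdhga4. Across all 21631 genes, with either gene end counted, H3K4me3 was called in 66.0% of genes in WT and 67.0% in RXRKO, in both in 65.6%, in RXRKO alone in 1.45% and in WT alone in 0.398%. Counted by either end, the same as for all genes, the protocadherins gave 13 in RXRKO alone (22.8%), 4 in WT alone and 27 in both. The change came from a single peak at the shared gamma end, called in WT and not in RXRKO. Through it Pcdhga2, Pcdhgb2 and Pcdhgc5 were added to WT alone, and Pcdhga3 moved to both. These calls are therefore not separate measurements. At the RefSeq start of 17274 genes, a set without chromosome 18 chosen after seeing the data, the shares were 66.8% in both, 0.944% in RXRKO alone and 0.318% in WT alone.

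**Figure D1:**
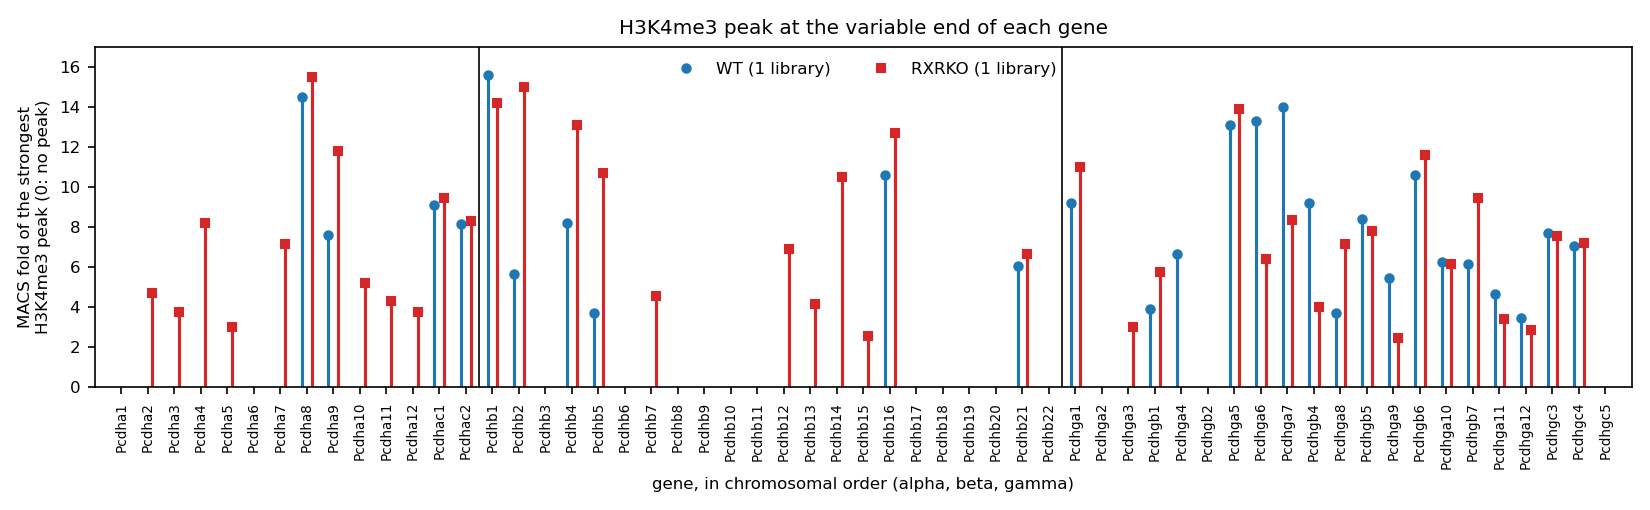
H3K4me3 peaks at the variable end of each of the 57 genes. The horizontal axis gives the genes in chromosomal order, with vertical lines between the alpha, beta and gamma clusters. The vertical axis gives the peak caller's fold of the strongest peak (a ratio) in the single WT library (blue circles) and the single RXRKO library (red squares), with no symbol where no peak was called. Red symbols without a blue partner stand at 14 genes, 8 of them in alpha and 5 in beta, and a blue symbol without a red partner at Pcdhga4.

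Over all genes, the weaker the RXRKO H3K4me3 peak, the more often the gene had no WT peak. WT peaks were not classed in this way. Of all genes with a RXRKO H3K4me3 peak of -log10 q under 10 (329 genes), 56.8% had no WT peak. The share was 16.7% of 498 genes with values from 10 to 30, 3.66% of 573 genes from 30 to 60, and 0.168% of 13102 genes from 60 up. All genes were taken at either end here, and the protocadherins at the variable end alone. For them the counts were 6 of 10, 6 of 10, 2 of 6 and 0 of 14. By either end, Pcdhga3 of the weakest class would also have a WT peak, through the shared gamma end. With these unlike windows, the share of protocadherins without a WT peak was close to that of all genes for the weakest peaks and higher for peaks of intermediate strength. These classes were set after seeing the data. Whether WT signal lay just under the peak threshold at these genes cannot be seen in peak lists and was not tested.

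The 12 alternate alpha genes, whose variable exons come before the C-type exons, differed most in their calls. In WT, H3K4me3 was called at 2 of them, Pcdha8 (fold 14.5, -log10 q 61.3) and Pcdha9 (fold 7.62, -log10 q 21.9). In RXRKO it was called at 10 of 12, with Pcdha8 at a fold of 15.5 and Pcdha9 at 11.8. Of the 8 genes called in RXRKO alone, Pcdha4 had a fold of 8.20 with -log10 q 36.0, Pcdha7 a fold of 7.16 with -log10 q 28.5, and Pcdha10 a fold of 5.21 with -log10 q 15.8. Pcdha2, Pcdha11 and Pcdha12 followed with folds of 4.69, 4.30 and 3.77. Pcdha3 had a fold of 3.77, and Pcdha5, the weakest, a fold of 2.99. Pcdha1 and Pcdha6 had no peak of any mark in any of the 8 lists. These peaks were short: the 10 in RXRKO had a median width of 566 bp (216 to 668 bp), against 1458 bp for all RXRKO H3K4me3 peaks at gene ends, and 9 of the 10 covered the annotated start itself.

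The 2 alpha C-type genes stood apart from the alternate genes by carrying H3K4me1 in every library. Pcdhac1 had H3K4me1 folds of 6.95 and 8.96 in WT and 5.97 and 11.2 in RXRKO, and H3K4me3 folds of 9.10 in WT and 9.46 in RXRKO, with no H3K27ac call. Pcdhac2 had H3K4me1 folds of 6.96 and 4.87 in WT and 5.75 and 4.34 in RXRKO, H3K4me3 folds of 8.15 and 8.32, and H3K27ac folds of 4.01 in WT and 3.98 in RXRKO. For Pcdhac2 the genotypes gave nearly the same H3K4me3 and H3K27ac folds. The H3K4me1 folds of WT and RXRKO overlapped at both genes, and within each replicate number that of Pcdhac2 was lower in RXRKO, while Pcdhac1 was lower in replicate 1 and higher in replicate 2. Around Pcdhac2 H3K4me1 filled the whole window in all 4 libraries, 2000 bp each.

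In the beta cluster H3K4me3 was called at 6 of 22 genes in WT and at 11 in RXRKO, which included all 6. The 5 called in RXRKO alone were Pcdhb14 (fold 10.5, -log10 q 54.6), Pcdhb12 (fold 6.90), Pcdhb7 (fold 4.56), Pcdhb13 (fold 4.17) and Pcdhb15 (fold 2.54, -log10 q 3.41). Among the 6 shared genes, Pcdhb1, which lies apart from the other beta genes at the alpha side, was high in both, with folds of 15.6 in WT and 14.2 in RXRKO. Pcdhb2 had a fold of 5.67 in WT and 15.0 in RXRKO, and Pcdhb16 one of 10.6 and 12.7. The peak was longer in RXRKO at 6 of 6 beta genes, by a median of 352 bp. Over all genes called in both libraries at the lower end, whatever their strand, it was longer in RXRKO at 57.9% of 8046. No mark was called in any list at Pcdhb6, Pcdhb8, Pcdhb9, Pcdhb10, Pcdhb11, Pcdhb18, Pcdhb19, Pcdhb20 and Pcdhb22, and Pcdhb8 to Pcdhb11 form a run of 4 neighbours without a peak.

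In the gamma cluster H3K4me3 was called as often in both genotypes, at 17 of 21 genes each and 16 in common. Pcdhga3 was called in RXRKO alone (fold 2.99, -log10 q 4.40) and Pcdhga4 in WT alone (fold 6.64, -log10 q 17.2). Among the 16 shared genes the fold was higher in RXRKO at 7 and higher in WT at 9, with a median log2 ratio of RXRKO over WT of -0.03. The same ratio was higher in RXRKO at 5 of 6 shared beta genes and 4 of 4 shared alpha genes, against 55.7% of 8046 genes. Those 8046 were taken at the lower end whatever their strand, so that end is not the start of every gene. The gamma genes were not alike: Pcdhga7 had a fold of 14.0 in WT and 8.33 in RXRKO, Pcdhga6 one of 13.3 and 6.38, and Pcdhgb4 one of 9.18 and 4.03. Pcdhgb7 went the other way, with 6.16 in WT and 9.44 in RXRKO. Pcdhga2, Pcdhgb2 and the C-type gene Pcdhgc5 had no peak at the variable end in any list.

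The gamma C-type genes Pcdhgc3 and Pcdhgc4 had all 3 marks in every library. Pcdhgc3 had H3K4me3 folds of 7.69 in WT and 7.53 in RXRKO, H3K27ac folds of 4.32 and 5.14, and H3K4me1 folds of 4.16 and 4.95 in WT against 4.34 and 3.81 in RXRKO. Pcdhgc4 had H3K4me3 folds of 7.07 and 7.18, H3K27ac folds of 4.99 and 4.73, and H3K4me1 folds of 5.55 and 4.61 in WT against 4.71 and 3.64 in RXRKO. The H3K4me1 folds of the genotypes overlapped at both genes when the replicates were read together. Within each replicate number Pcdhgc4 was lower in RXRKO, and Pcdhgc3 was higher in replicate 1 and lower in replicate 2. The H3K4me3 peaks of the 4 marked C-type genes were also wider than those of alternate genes, with a median of 1847 bp in WT and 1868 bp in RXRKO, against 511 and 478 bp at alternate gamma genes.

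**Figure D2:**
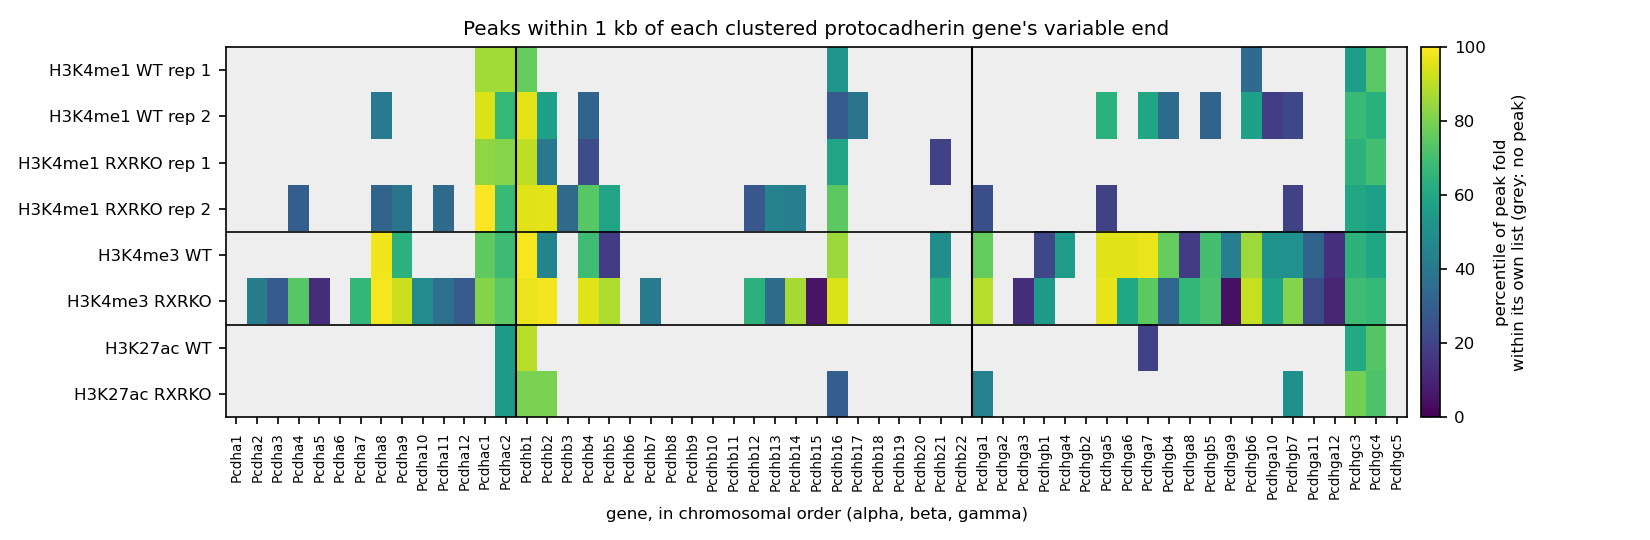
Peaks within 1 kb of the variable end of each gene in the 8 libraries. Columns are the 57 genes in chromosomal order, rows are the libraries grouped by mark, and the colour gives the percentile of the strongest peak's fold within its own list (grey where there is no peak). Columns filled from top to bottom are Pcdhac2, Pcdhb1, Pcdhgc3 and Pcdhgc4, and 14 columns are grey throughout.

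Across marks, 4 of 57 genes were called in all 8 lists (Pcdhac2, Pcdhb1, Pcdhgc3 and Pcdhgc4), against 52.9% of all genes, and 14 in none, against 25.7% of all genes. Counted by either end, as the shares of all genes are, 4 were in all 8 lists and 11 in none. H3K27ac was called at 5 variable ends in WT and 8 in RXRKO. The 4 genes just named had it in both (7.02%, against 56.2% of all genes, or 57.6% at RefSeq starts). It was called in RXRKO alone at Pcdhb2 (fold 5.20), Pcdhgb7 (3.85), Pcdhga1 (3.66) and Pcdhb16 (3.27), and in WT alone at Pcdhga7 (2.95), against 1.33% of all genes in RXRKO alone and 4.74% in WT alone. Every H3K27ac call lay on a gene with H3K4me3 in the same genotype. None of the 14 genes with H3K4me3 in RXRKO alone had H3K27ac in either genotype.

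H3K4me1 was called at 7 variable ends in WT replicate 1 and 17 in WT replicate 2, against 9 and 20 in RXRKO. The difference between replicates, which also carry different run tags, was larger than that between genotypes within a replicate. It was called in all 4 libraries at 6 genes (Pcdhac1, Pcdhac2, Pcdhb1, Pcdhb16, Pcdhgc3 and Pcdhgc4), against 67.5% of all genes and 66.7% at RefSeq starts, and in none of the 4 at 30. No gene was called in both RXRKO and neither WT library (0.190% of all genes), and Pcdhgb6 alone was called in both WT and neither RXRKO library (0.250%). By either end, 6 genes were called in all 4 libraries and none in both libraries of 1 genotype alone. Within replicate 1, 3 genes were called in RXRKO alone (Pcdhb2, Pcdhb4 and Pcdhb21; 1.31% of all genes) and Pcdhgb6 in WT alone (1.61%). Those shares of all genes count either end, and so counted the protocadherins gave the same 3 in RXRKO alone and 19 in WT alone. These 19 are gamma genes called through their shared higher end, which had a peak within 1 kb in WT replicate 1 and none that near in RXRKO replicate 1, so they are 1 measurement.

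Within replicate 2, H3K4me1 calls in 1 genotype alone lay in different clusters, a difference that was not tested. In RXRKO alone they were at 3 alpha genes (Pcdha4, Pcdha9 and Pcdha11), 5 beta genes (Pcdhb3, Pcdhb5, Pcdhb12, Pcdhb13 and Pcdhb14) and Pcdhga1, 9 in all, against 1.30% of all genes. In WT alone they were at 5 gamma genes (Pcdhga7, Pcdhgb4, Pcdhgb5, Pcdhgb6 and Pcdhga10) and Pcdhb17, 6 in all, against 1.20% of all genes. By either end these counts were 8 in RXRKO alone and 1, Pcdhb17, in WT alone, since the shared gamma end was called in both genotypes in replicate 2. Of the 14 genes with H3K4me3 in RXRKO alone, 5 had H3K4me1 in RXRKO replicate 2, with folds of 2.57 at Pcdha4, 2.72 at Pcdha11, 2.50 at Pcdhb12, 3.09 at Pcdhb13 and 3.01 at Pcdhb14. None of the 14 had it in either WT library or in RXRKO replicate 1. These H3K4me1 peaks are weak, and RXRKO replicate 2 had the highest background of the 4 libraries (12.6), whose part in these calls was not tested.

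The amount of H3K4me1 was then compared over all 4 libraries as the bases covered by peaks in each gene body and the 20 kb on either side, on the log2 scale of covered bases plus 1000, with limma and Benjamini-Hochberg adjustment. Of 17760 genes tested 0 passed an adjusted p of 0.05 (percent called 0), and 1051 (5.92%) had an unadjusted p under it. Of the 57 protocadherins 39 had enough covered bases to be tested: all 14 alpha genes, 4 beta genes and all 21 gamma genes. The other 18 beta genes fell under the minimum of 1000 bp. The window of Pcdhb2 had 417 and 872 covered bp in WT and 1572 and 3337 bp in RXRKO. In WT replicate 1 all 417 bp lay in a region 11206 bp before the gene, whose own variable end had no H3K4me1 peak in that library. The RXRKO values lay above both WT values, and the log2 difference was 0.98 ± 0.204 (SE, n = 2 per genotype; limma adjusted p = 0.240). Pcdhb3, whose window largely repeats that of Pcdhb2, gave 1.10 ± 0.238 (limma adjusted p = 0.263), and Pcdhb4, with 0 and 656 bp in WT against 852 and 3088 bp in RXRKO, gave 1.04 ± 0.300 (limma adjusted p = 0.526). These 3 overlapping windows were the protocadherins with an unadjusted p under 0.05, and none passed after adjustment. Single libraries decide this call: without WT replicate 2, 2 of them passed (0.118% of all genes tested did), without RXRKO replicate 1, 3 did (0.614% of all genes), and without WT replicate 1 (0.591% of all genes) or RXRKO replicate 2 (no gene at all) none did. In these fits the spread comes from the genotype that keeps 2 libraries. With the replicate number as a block, which stands for the run tag, none passed, and the lowest adjusted p among the members was 0.0513. With 5 kb instead of 20 kb on either side, 1 beta gene could be tested by limma (log2 difference -0.08). No protocadherin then had an unadjusted p under 0.05.

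None of the alpha or gamma windows had an unadjusted p under 0.05 in the limma fit with 20 kb on either side and all H3K4me1 libraries. Without WT replicate 1, however, all 21 gamma windows were lower in RXRKO (median log2 difference -0.29). With peaks of -log10 q of at least 5, 18 of the 21 were lower at an unadjusted limma p under 0.05 (median -0.21). In that fit 6.00% of all genes tested had such a p in either direction, and no gamma window passed after adjustment. The gamma windows share bases, so these 18 are not separate measurements. The log2 differences of the alpha genes ranged from -0.02 to 0.06, their signs turning under other settings, and Pcdhac1 had 4884 and 5576 bp in WT against 4705 and 6150 bp in RXRKO (log2 difference -0.02, 95% interval -0.24 to 0.20). The gamma genes ranged from -0.15 to -0.03, and they share the downstream bases, so these 21 values are close to 1 measurement. Pcdhgb4, with the smallest p of the cluster, had 13271 and 17665 bp in WT and 13405 and 15368 bp in RXRKO, which overlap (log2 difference -0.15, 95% interval -0.36 to 0.07). Pcdhgc3, Pcdhgc4 and Pcdhgc5 shared 12363 and 15049 bp in WT and 12897 and 15067 bp in RXRKO (-0.03, 95% interval -0.21 to 0.15).

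Bins of 5 kb, which share no base, were tested in the same way. Of 110692 bins tested by limma 0 passed (percent called 0), with 6.92% at an unadjusted p under 0.05. Of the 142 bins of the clusters 20 could be tested, 0 passed, and 4 had an unadjusted p under 0.05, 3 in beta and higher in RXRKO and 1 in gamma and lower. The bin at chr18:37475001-37480000, which holds the start of Pcdhb16, had 299 and 321 covered bp in WT and 591 and 1138 bp in RXRKO, a log2 difference of 1.11 ± 0.296 (SE, n = 2; limma adjusted p = 0.608). The bin at chr18:37840001-37845000, where the annotated gamma genes end next to Diaph1, a formin that nucleates actin, had 1227 and 1906 bp in WT and 610 and 440 bp in RXRKO, a log2 difference of -1.46 ± 0.291 (SE, n = 2; limma adjusted p = 0.560). The WT and RXRKO values did not overlap in either bin. In alpha the smallest p was at chr18:37175001-37180000, with 687 and 705 bp in WT against 516 and 741 bp in RXRKO, which overlap (log2 difference -0.21).

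**Figure D3:**
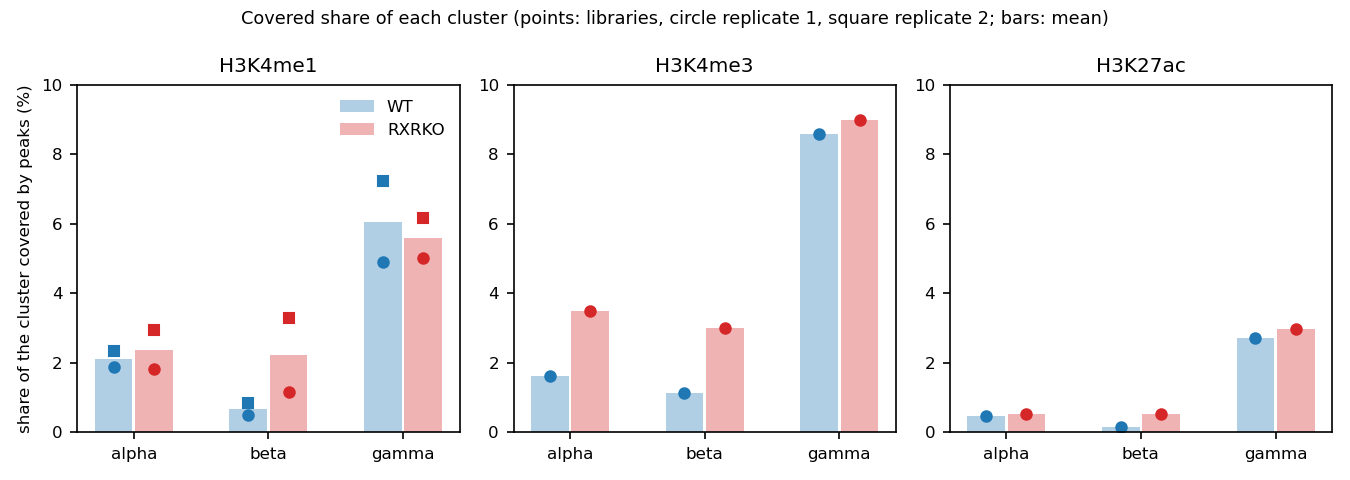
Share of each cluster covered by peaks, in percent, for H3K4me1 (left), H3K4me3 (middle) and H3K27ac (right). Points are libraries (circles replicate 1, squares replicate 2), bars are their mean, blue is WT and red is RXRKO. The H3K4me1 points of the genotypes overlap in alpha and gamma and not in beta, and the H3K4me3 bars differ in alpha and beta and are alike in gamma.

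Summed over whole clusters, H3K4me3 covered 1.63% of alpha in WT and 3.50% in RXRKO (2.15 times the bases), 1.14% and 2.99% of beta (2.61 times) and 8.57% and 8.99% of gamma (1.05 times). Genome-wide the RXRKO list covered 1.18 times the bases of the WT list. The gamma cluster was the densest for this mark, with 4.95 times the genome's share in WT and 4.40 times in RXRKO. H3K27ac covered 0.461% and 0.536% of alpha, 0.145% and 0.529% of beta and 2.72% and 2.97% of gamma in WT and RXRKO. H3K4me1 covered 0.500% and 0.854% of beta in WT against 1.17% and 3.28% in RXRKO, a mean difference of 1.55 percentage points. The beta values of the genotypes did not overlap, but the exact two-sided permutation test over 2 against 2 libraries gave p = 0.333, the smallest it can give. In alpha the values were 1.89% and 2.33% in WT and 1.82% and 2.93% in RXRKO, and in gamma 4.89% and 7.22% against 5.01% and 6.17% (exact permutation p = 1.00 for both). H3K4me1 was sparse in beta, at 0.117 to 0.647 times the genome's share in the 4 libraries.

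**Figure D4:**
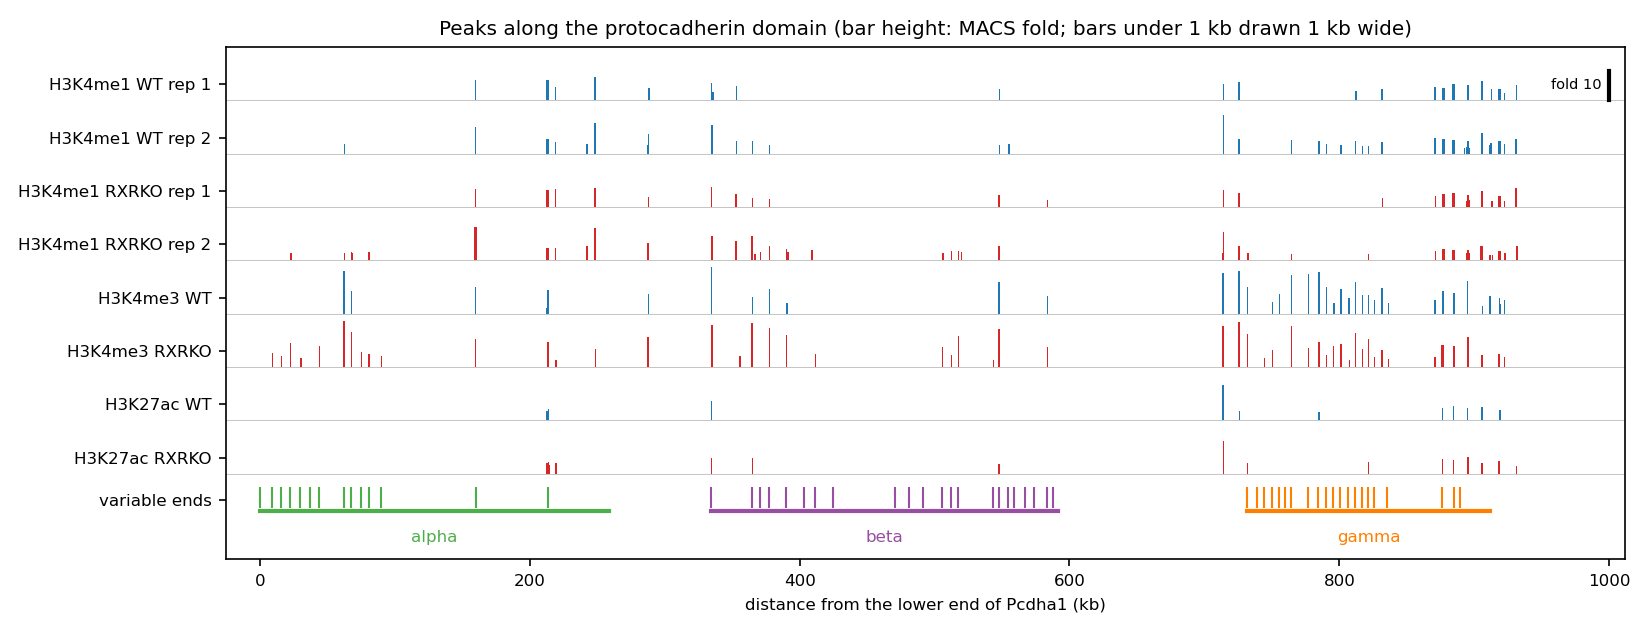
Peaks of the 8 libraries along the 912 kb domain. The horizontal axis is the distance in kb from the lower end of Pcdha1, each track is 1 library (blue WT, red RXRKO), bar height is the peak caller's fold (scale bar: fold 10), and the ticks at the bottom mark the 57 variable ends. The H3K4me3 tracks show the added RXRKO peaks over the alternate alpha genes and part of beta, and dense peaks in both genotypes over gamma.

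When overlapping peaks of all lists were merged, the domain held 63 distinct regions, 44 at a variable end and 19 elsewhere. Of the 19, 10 had H3K4me1 in all 4 libraries and 3 were in all 8 lists. One of the 3 lies at the higher end of Taf7, a subunit of the general transcription factor TFIID whose gene stands between beta and gamma (chr18:37643295-37644816), and its neighbour Slc25a2 had no call. The other two lie among the last gamma exons, at chr18:37824773-37826094, 5227 bp beyond the start of Pcdhgc5, and at chr18:37834652-37836879, 4994 bp before the shared gamma end. A region 5396 bp before Pcdhga1 (chr18:37655434-37656378) was in 7 lists, without H3K27ac in RXRKO. Between alpha and beta, a region 29503 bp beyond the shared alpha end (chr18:37217161-37218503) had H3K4me1 in all 4 libraries and H3K4me3 in both genotypes. In alpha itself, the regions 5383 bp and 34489 bp beyond the start of Pcdhac2 had H3K4me1 in all 4 libraries and H3K4me3 in RXRKO alone, and the first of them also had H3K27ac in RXRKO alone (fold 3.47). At the shared gamma end (chr18:37841339-37843564) the reverse held, with H3K4me1 in all 4 libraries and H3K4me3 in WT alone. The lower end of Pcdhgb8, a gamma gene that is not among the members counted here, also had H3K4me3 in both genotypes (chr18:37761323-37762398). Its region is therefore counted among the 19 elsewhere. The distances and regions in this paragraph were picked after their values were seen.

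Genes with known roles around the clusters were counted in the same way. Of 21 regulators (CTCF, cohesin subunits and loaders, and silencing factors), 16 had H3K4me3 in both genotypes and 0 in RXRKO alone. Ctcf and Smchd1, whose product silences clustered genes on several chromosomes, were called in all 8 lists, and Dnmt3b, a DNA methyltransferase, in 7. The cohesin gene Rad21 had no peak within 1 kb of its annotated ends, and neither had Dnmt1, Stag1 and Nipbl. Inside Rad21, however, H3K4me3 covered 2669 bp in WT and 2583 bp in RXRKO. A missing call at the annotated ends therefore does not mean a gene without H3K4me3. Of 13 genes of kinases, actin regulators and adhesion proteins known as protocadherin partners, 11 had H3K4me3 in both and 0 in RXRKO alone. Of 12 genes flanking the clusters, 11 had it in both and 0 in RXRKO alone. Of 12 unclustered protocadherins, 9 had it in both and 2, Pcdh12 and Pcdh15, in RXRKO alone. Among other tandem families, H3K4me3 in RXRKO alone was found at 6 of 1110 olfactory receptor genes, 1 of 9 Ugt1a genes, 1 of 39 Hox genes, and 0 of 231 Vmn1r, 0 of 124 Vmn2r and 0 of 56 Krtap genes. Most of these genes had no H3K4me3 call in RXRKO. It was called there at 16 olfactory receptor, 2 Ugt1a, 36 Hox, 1 Vmn1r, 2 Vmn2r and 0 Krtap genes. Of genes with a RXRKO call, 6 of 16 olfactory receptor, 1 of 2 Ugt1a and 1 of 36 Hox genes had no WT call. For the clustered protocadherins this was 14 of 40 at the variable end. Over all genes it was 313 of 14502 (2.16%), a share that fell with the strength of the RXRKO peak, as given above. Apart from that of the clustered protocadherins, all of these counts take either gene end.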

How the data were processed

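The 8 deposited peak lists, 1 per library, were grouped by sample titles. Per the submitters' processing notes, reads were trimmed with cutadapt 1.7.1, aligned to mm10 with Bowtie2 2.2.5, and peaks called with MACS3; caller options, controls and spike-in were not given in the sources read. The deposited columns hold positions, a score (10 times -log10 q), a fold (ratio of summit over local background), and -log10 p and q values, as called by the authors per sample. No read depth is given, so depth enters only through the background recovered from fold and p; 95.7% or more of each list's peaks gave one.

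Gene positions came from RefSeq GRCm38.p6, which has no strand here. Covered bases were tested with limma 3.58.1 (R 4.3.3; lmFit and eBayes with trend) on log2 values, median-centred per library, for genes with 20 kb on each side (pseudocount 1000 bp, minimum mean 1000 bp) and for 5 kb bins (pseudocount 100 bp, minimum mean 250 bp). Nothing states that the 2 H3K4me1 replicates came from separate pools, so p-values measure only the spread between these libraries. Replicate numbers go with the run tags in the peak names. Deviations of same-numbered libraries correlated at r = 0.212 over 17760 genes. Steps were tested on simulated data. Alternatives were other windows, overlaps, peak thresholds, bins, centring, filters, the replicate block and leaving out each library. Named genes were the 5 C-type genes; up to 6 genes per cluster with H3K4me3 or H3K27ac in 1 genotype only; the 3 with the most and least H3K4me1; the smallest p per cluster and fit; genes called by all or no lists; and chosen neighbours and regulators. Others were named after their values were seen. The genes and lists were chosen with earlier results of these data known. Promoter base composition is not analysed here.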

Additional observations from a re-analysis of the deposited data

How the results depend on the processing

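Window half-widths of 500 bp and 2 kb left the counts of H3K4me3 and H3K27ac calls at the variable ends as reported, and so did asking for the peak summit in the window, an alternative chosen after seeing the data. H3K4me3 in RXRKO alone at all members (14) was 11 to 14 under every alternative (19.3% to 24.6%), against 0.841% to 1.96% of all genes. In WT alone (1) it was 1 to 5 (1.75% to 8.77%), against 0.361% to 1.37% of all genes. Members were counted at the variable end and all genes at either end, so these shares rest on unlike windows. An overlap of at least 500 bp, longer than many of these peaks, left H3K4me3 in both at 11, in RXRKO alone at 3 in beta and 2 in gamma, and in WT alone at 5; H3K27ac in 1 genotype at 0 and 0; and H3K4me1 in RXRKO alone at 1 and in WT alone at 0. Peaks with a fold of at least 4 left H3K4me3 in RXRKO alone at 5 in alpha and 2 in gamma and in WT alone at 3, H3K27ac in RXRKO alone at 1, H3K4me1 in all 4 at 3 and in WT alone at 0, the gamma H3K4me1 difference at -2.40 percentage points, 12 regions elsewhere and 2 in all 8 lists. A -log10 q of at least 5 gave 0 in RXRKO alone in gamma and 3 in WT alone for H3K4me3, 2 in RXRKO alone and 0 in WT alone for H3K27ac, and 0 in WT alone for H3K4me1. Equal numbers of top peaks gave 0 in RXRKO alone in gamma, 4 in WT alone for H3K4me3, and 0 in WT alone for H3K27ac. Leaving out 1 H3K4me1 library gave 6 to 8 genes in all libraries, 0 to 9 in RXRKO alone and 1 to 6 in WT alone, a beta difference of 0.490 to 2.60 percentage points, alpha -0.290 to 0.817, gamma -1.63 to 0.697, and whole domain -0.171 to 1.10.

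The limma count of protocadherin genes (0) was 3 without centring (0.366% of all genes tested were called), 4 without the filter on low covered length (0.943% of all genes), and 0 to 3 with 1 library left out (0 to 0.614% of all genes). The count of bins in the clusters was 0 in every fit run, while over all bins 0.496% were called without WT replicate 1 and 0.084% without WT replicate 2. The fit of bins without a filter could not be fitted. Without centring, the median over all genes tested was 0.05. With the replicate block (the run tag) 0 member genes and 0 member bins were called, and it changed no other call on a member. Signs near 0 turned: Pcdha1 ran from -0.12 to 0.24 with 1 library left out, Pcdhac1 from -0.07 to 0.03, Pcdhac2 from -0.05 to 0.03, Pcdhgb4 from -0.31 to 0.01, and Pcdhgc3, Pcdhgc4 and Pcdhgc5 from -0.13 to 0.07. With a fold of at least 4, Pcdhac1 was 0.19 and Pcdhac2 0.21, the median of the 21 gamma windows went from -0.13 to -0.73, and no beta window kept an unadjusted p under 0.05 (smallest 0.0537). Without centring, Pcdhac1 was 0.04, Pcdhac2 0.05, and Pcdhgc3, Pcdhgc4 and Pcdhgc5 0.03. The cause of these changes was not tested.

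Peak lists limit all of this: signal under the peak threshold is not seen, fewer marked cells and less mark per cell cannot be told apart, and H3K4me3 and H3K27ac rest on 1 library per genotype, with the higher H3K4me3 background in RXRKO.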
